A study of Mus musculus with 2 samples.

Results

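Expression of Id1, Id2, Id3, Id4, Bmp7, Smad6 and Smad7 was measured in single cells of newborn mouse cortex, in neuronal, glial and vascular groups of cells. These are 7 of the 27998 genes counted, and they were chosen by name. Bone morphogenetic proteins (BMPs) are secreted ligands that activate receptor kinases and, through them, SMAD transcription factors. The Id genes are early targets of this pathway and encode helix-loop-helix (HLH) proteins without a DNA-binding region, which capture the E proteins that proneural factors need to bind DNA. In the developing cortex the Id proteins are known for keeping progenitors undifferentiated and for favouring glial over neuronal fate, and Smad6 and Smad7 encode inhibitory SMADs that damp the signal.

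The study prepared 2 single-cell libraries on the 10x platform, 1 per genotype, from telencephalic tissue of C57BL/6 mice at postnatal day 0 (P0). The first is labelled WT. The second, called cKO, carries STINGf/f;Nestin-Cre, which deletes the floxed STING gene (Tmem173) in cells that have expressed Cre. Nestin-Cre acts in neural progenitors, so neurons, astroglia and oligodendrocyte precursors descend from cells it reaches, while microglia arise outside that lineage. The study's text names the control of these libraries as STINGfl/fl, which carries the floxed allele, and WT is kept here as the label. Whether the control also carried Cre is not given there. How many animals went into a library is not given in the sources used here.

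With 1 library per genotype there is no replicate, so no test was made and a difference between WT and cKO compares those libraries. Intervals are 95% intervals and cover counting error only. After filtering, 6601 WT and 5974 cKO cells remained, with a median of 6552 and 7537 unique molecular identifiers (UMIs, single counted RNA molecules) per cell. Tmem173 had 126 UMIs in WT and 18 in cKO cells, or 2.26 and 0.327 CPM (UMIs per 1000000 of the library or group). It had 0 UMIs in projection neurons, GABAergic neurons and oligodendrocyte precursors of both libraries. Of the rest, endothelial cells had 37 in WT and 8 in cKO, microglial cells 18 and 2, astroglial cells 10 and 1, and cells placed in no group 50 and 7, so the total is not a check of deletion in neurons. The libraries also differed in sex-linked RNA, with 10 Xist UMIs and 9771 UMIs of Y-linked genes in WT against 71370 and 6 in cKO, so that genotype, sex and library cannot be told apart. The files hold 19 barcodes found in both libraries, 8 of them among the kept cells.

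Each cell was placed with 1 of 14 marker lists, the one with the largest share of its genes detected, when at least 3 of its markers had a UMI. None of the 7 genes was a marker. Group names below stand for cells that are like the named type by these markers alone. In 10 groups both libraries had at least 20 cells, namely projection neurons (2644 WT and 2815 cKO cells), GABAergic neurons (1588 and 1289), Cajal-Retzius cells (64 and 78), intermediate progenitors (100 and 106), cycling progenitors (285 and 173), astroglial cells (728 and 553), oligodendrocyte precursors (310 and 164), endothelial cells (114 and 56), mural cells (32 and 27) and microglial cells (59 and 28). In all 10 groups every marker of the group's own list stood above its level over all cells in both libraries. These markers placed the cells, so this follows from the placing and is no check of the groups. Cells with fewer markers or with tied lists were set aside, 635 in WT (9.62%) and 674 in cKO (11.3%). The most common cluster was not the same in WT and cKO for projection neurons, GABAergic neurons and intermediate progenitors, and was the same for the other 7 groups.

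In the GENCODE M21 annotation of GRCm38, Id1 (ENSMUSG00000042745) lies on chromosome 2 at 152736251-152737410 on the plus strand and Id2 (ENSMUSG00000020644) on chromosome 12 at 25093799-25097140 on the minus strand. Id3 (ENSMUSG00000007872) lies on chromosome 4 at 136143497-136145755 and Id4 (ENSMUSG00000021379) on chromosome 13 at 48261228-48266026, both on the plus strand. Bmp7 (ENSMUSG00000008999) spans 172868012-172940321 of chromosome 2 and Smad6 (ENSMUSG00000036867) spans 63953076-64022059 of chromosome 9, both on the minus strand. The seventh member is Smad7 (ENSMUSG00000025880). Exons of Id4 overlap those of A330033J07Rik and Gm49291 on the other strand. A330033J07Rik had 24 UMIs in the WT and 36 in the cKO matrix, and Gm49291 was not analysed here. Whether counting used strand is not given in the sources used here, and without strand reads of Id4 and of these genes could not be told apart. No other member overlaps an annotated gene.

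The 250 bases before the start of Id4, which gave the largest difference between the libraries among members with at least 50 UMIs in a group, and of Smad6, a feedback inhibitor, are shown because neither window touches an annotated exon. They come from the RefSeq promoter table (GRCm38.p6), in which 4 of the 7 members matched. The start of Id4 used there lies before the GENCODE start, so its window ends at 48261115, short of 48261228. Capitals mark GGCGCC, a GC-rich motif known from BMP-responsive elements.
Id4, chr13:48260866-48261115, plus strand: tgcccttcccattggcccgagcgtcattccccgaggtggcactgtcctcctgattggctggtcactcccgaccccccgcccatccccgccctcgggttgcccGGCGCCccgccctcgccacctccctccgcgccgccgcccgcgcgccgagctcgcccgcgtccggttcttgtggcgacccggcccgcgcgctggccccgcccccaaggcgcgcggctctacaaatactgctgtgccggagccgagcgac
Smad6, chr9:64022060-64022309, minus strand: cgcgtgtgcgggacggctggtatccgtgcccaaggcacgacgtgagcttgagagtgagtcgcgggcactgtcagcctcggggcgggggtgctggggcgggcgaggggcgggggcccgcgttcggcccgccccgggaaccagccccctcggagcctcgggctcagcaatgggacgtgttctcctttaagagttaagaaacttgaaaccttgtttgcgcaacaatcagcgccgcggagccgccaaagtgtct
GGCGCC, which reads the same on both strands, occurs once in the Id4 window and not in the Smad6 window. Of 32851 promoter windows of the same length 9.59% hold it, a share not matched for GC content. Of the other matched members, whose windows touch exons, Id2 holds it once and Id3 does not. The SMAD-binding palindrome GTCTAGAC (0.167% of windows) and the E-box CANNTG (66.2% of windows) occur in neither the Id4 nor the Smad6 window. CANNTG is the motif bound by the E proteins. GC content was 75.6% in the Id4 and 66.8% in the Smad6 window.

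Id1 and Id3 were highest in the same groups of cells, and both were low in neurons. Id1 was highest in astroglial cells, at 634 CPM (95% interval 613 to 655) in WT and 534 (513 to 554) in cKO. Endothelial cells followed at 309 (281 to 338) and 532 (483 to 584) CPM, and cycling progenitors at 229 and 282 CPM. In WT the intervals of these 3 groups were apart, whereas in cKO astroglial and endothelial cells overlapped. Projection neurons had 1.90 and 1.68 CPM of Id1, from 49 and 51 UMIs, and microglial cells 1 UMI in each library.

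Id3 followed the same order, with 1089.7 (1062 to 1118) CPM in WT and 959.7 (933 to 987) in cKO astroglial cells. Endothelial cells had 354 and 323 CPM, cycling progenitors 253 and 266, mural cells 169 and 115, and oligodendrocyte precursors 138 and 64.9 CPM. Projection neurons had 3.02 and 3.23 CPM and GABAergic neurons 10.3 and 13.8 CPM. The steps from astroglial to endothelial cells, from cycling progenitors to mural cells and from oligodendrocyte precursors to the next group, intermediate progenitors, were larger than counting error in both libraries. With tied lists placed by marker UMIs, an alternative chosen after seeing the data, cycling progenitors had 277 CPM of Id3 in WT and 241 in cKO. Mural cells then had 278 and 175 CPM, so the step from cycling progenitors to mural cells is not settled. Below intermediate progenitors every group overlapped its neighbour. Of all Id3 UMIs in the kept cells, 65.9% in WT and 73.4% in cKO lay in astroglial cells, as did 60.6% and 58.4% of Id1 UMIs.

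Id2 had the opposite distribution among neurons. Projection neurons were highest with 648 (638 to 658) CPM in WT and 906 (895 to 917) in cKO, followed by intermediate progenitors, the neurogenic cells that express Eomes, with 595 (540 to 655) and 707 (655 to 763). The intermediate progenitor group lay close to projection neurons by its markers. Its cells had a median of 4 of their own and 3 projection neuron markers. At the minimum of 3 were 38% of WT and 40.6% of cKO cells. Of the WT cells 66% lay in the cluster most common in WT projection neurons. Of the cKO cells 79.2% lay in another cluster than the one most common in cKO projection neurons. With groups by cluster, where each cluster takes its most common group, intermediate progenitors had 0 cells in both libraries. Astroglial cells came next with 434 and 596 CPM. GABAergic neurons had 185 and 139 CPM, and the lowest values were in endothelial cells in WT (48.7) and mural cells in cKO (24.3, from 4 UMIs). The latter overlapped Cajal-Retzius cells, and with tied lists placed by marker UMIs, an alternative chosen after seeing the data, mural cells had 57.2 CPM in WT and 102 in cKO, so their place in the order is not settled. Projection neurons and intermediate progenitors overlapped in WT and were apart in cKO. Projection neurons held 70.8% of the Id2 UMIs of WT and 78.0% of those of cKO.

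Id4 was highest in astroglial cells as well, with 214 (202 to 226) CPM in WT and 191 (179 to 203) in cKO, but the next of the 10 groups were neuronal. The ependymal group, too small in cKO to be among the 10, had 169 (137 to 206) CPM from 38 WT cells and 203 (135 to 294) from 8 cKO cells. GABAergic neurons had 85.7 and 93.7 CPM and Cajal-Retzius cells, the Reln-expressing neurons of the cortical surface, 86.3 and 60.3 CPM. Projection neurons had 16.0 CPM in WT and 6.80 in cKO. Endothelial cells had 4 Id4 UMIs in WT and 0 in cKO, where 0 allows up to 3.67 CPM (3 counts over the group).

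Bmp7, a ligand of the pathway, was highest in oligodendrocyte precursors, at 96.3 (82.4 to 112) CPM in WT and 68.7 (53.9 to 86.2) in cKO. Astroglial cells had 21.9 and 24.3 CPM, cycling progenitors 17.0 and 10.7, and Cajal-Retzius cells 9.24 and 15.8. Projection neurons had 0.310 and 0.363 CPM, and no Bmp7 UMI was found in mural or microglial cells. The gap between oligodendrocyte precursors and every other group was larger than counting error in both libraries.

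Smad6 was a low transcript with 147 UMIs in the WT and 136 in the cKO cells. Astroglial cells had 13.2 (10.4 to 16.7) and 13.4 (10.4 to 17.0) CPM and endothelial cells 11.5 (6.70 to 18.4) and 12.2 (5.87 to 22.5), which overlapped. Oligodendrocyte precursors had 0 Smad6 UMIs in both libraries, which allows up to 1.69 CPM in WT and 2.78 in cKO, so astroglial cells stood at least 7.84-fold higher in WT and at least 4.81-fold higher in cKO.

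Smad7 had no dominant group. Its range over the 10 groups was 15.8 to 50.8 CPM in WT and 15.1 to 46.4 in cKO, and every group overlapped its neighbour in the order. Endothelial cells were highest in WT, at 50.8 (39.9 to 63.7) CPM, and intermediate progenitors in cKO, at 46.4 (33.7 to 62.3). The other 6 members had their highest group in common between the libraries.

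**Figure D1:**
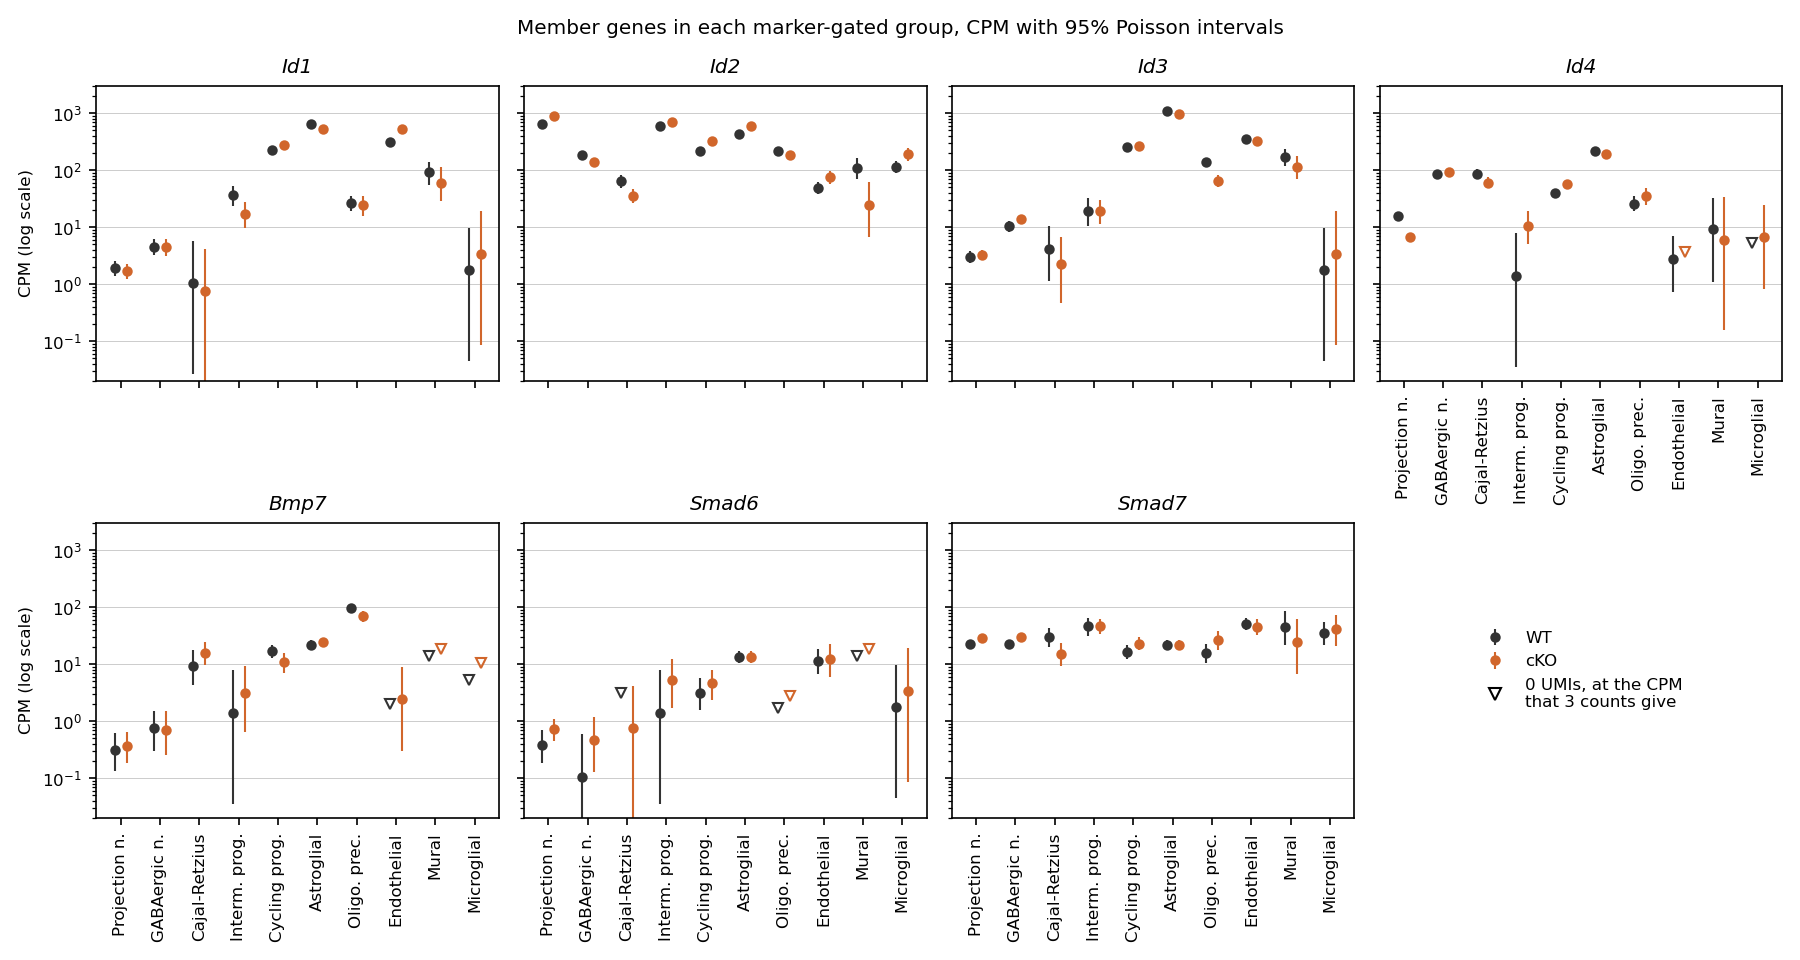
CPM of each member (log axis) in 10 groups of cells in WT (dark) and cKO (orange), 1 library each, with 95% Poisson intervals; open triangles mark 0 UMIs at the CPM that 3 counts give. Id1 and Id3 are 1.90 and 3.02 CPM in WT projection neurons and 634 and 1089.7 CPM in WT astroglial cells, whereas Smad7 stays between 15.8 and 50.8 CPM in WT. In WT microglial cells Id1 and Id3 rest on 1 UMI each, with intervals that hold the projection neuron values.

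Pairs of groups were then compared within each library, counting a gene only where it was at least 2-fold apart with Poisson intervals apart, in the same direction in WT and in cKO. Between astroglial cells and projection neurons 5 of the 7 members stood higher in astroglial cells, against 17.5% of 11191 genes. They were Id1 (334-fold in WT and 317-fold in cKO), Id3 (361-fold and 297-fold), Bmp7 (70.6-fold and 67.0-fold), Smad6 (34.2-fold and 18.4-fold) and Id4 (13.4-fold and 28.1-fold). None stood lower, against 13.8% of genes. Id2 and Smad7 stayed within 2-fold, with Id2 at 0.670 and 0.658 of the projection neuron level.

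Between endothelial cells and projection neurons, Id1 and Id3 stood higher in endothelial cells, 2 of the 5 members with enough UMIs, against 12.9% of 10937 genes. Id2 stood lower, 1 of 5, against 20.2% of genes, a share that takes counts of 0 at face value. Id1 was 163-fold higher in WT and 316-fold in cKO and Id3 by a log2 ratio of 6.87 and 6.64, while Id2 was at 0.0753 and 0.0825 of the projection neuron level. Id4 was not counted, since in cKO it rested on 0 endothelial UMIs and against 3 counts it was only at least 1.85-fold lower. Between astroglial cells and oligodendrocyte precursors, the glial pair, Id1, Id3, Id4 and Smad6 stood higher in astroglial cells (4 of 7, against 8.79% of 8302 genes) and Bmp7 lower (1 of 7, against 4.59%). Bmp7 in astroglial cells was at 0.227 of the oligodendrocyte precursor level in WT and 0.354 in cKO. Id3 was 7.90-fold and 14.8-fold higher in astroglial cells.

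Between endothelial and astroglial cells Smad7 was the member that stood higher in endothelial cells, 2.30-fold in WT and 2.05-fold in cKO, 1 of 7 against 8.35% of 8487 genes. Id2, Id3, Id4 and Bmp7 stood lower, 4 of 7 against 20.7%. Cycling progenitors exceeded GABAergic neurons in Id1 (50.1-fold and 63.6-fold) and Id3 (24.5-fold and 19.3-fold), 2 of 5 members against 10.6% of 9225 genes. No member stood lower (13.5% of genes). The cycling group was mixed. Cycling cells whose next best marker list was astroglial had 414 and 581 CPM of Id1 and 567 and 577 of Id3. Those whose next list was GABAergic had 36.4 and 35.5 CPM of Id1. Their Id3 was 5.07 and 7.10 CPM, from 6 and 5 UMIs, against 10.3 and 13.8 in GABAergic neurons.

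In single cells the same groups stood out. To compare cells of unequal depth, each cell was thinned to 1000 UMIs, and shallower cells were left out (19 WT and 7 cKO projection neurons, for example). In WT an Id1 UMI was found in 40.9% (37.3 to 44.6) of astroglial cells, 27.2% (19.3 to 36.3) of endothelial cells and 15.4% (11.4 to 20.2) of cycling progenitors. The share in projection neurons was 0.114% in WT and 0.249% in cKO, and 0 of 56 WT microglial cells had one, which allows up to 5.36%; these groups served as the background from free RNA. Without thinning, 77.2% of WT and 77.4% of cKO astroglial cells had an Id1 UMI.

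The share with an Id2 UMI was 41.6% (39.7 to 43.5) of WT and 48.5% (46.6 to 50.3) of cKO projection neurons, and 32.6% (29.2 to 36.1) of WT and 41.8% (37.6 to 46.0) of cKO astroglial cells. In both groups the cKO share lay above the WT share. This compares 2 libraries, since cells of 1 library are no replicates of a genotype. Id4 was found in 2.13% (1.62 to 2.76) of WT and 0.605% (0.353 to 0.968) of cKO projection neurons, and in 15.6% and 15.8% of astroglial cells. After thinning, 0 of 114 WT endothelial cells had an Id4 UMI, which allows up to 2.63%, more than both projection neuron shares. These thinned shares therefore cannot tell expression in projection neurons from free RNA. Over full counts WT projection neurons had 16.0 (14.5 to 17.6) CPM, against 2.71 (0.738 to 6.93) in endothelial and 0 UMIs in microglial cells. In cKO projection neurons had 6.80 (5.90 to 7.79) CPM, endothelial cells 0 UMIs, and microglial cells 6.85 (0.829 to 24.7) CPM from 2 UMIs. At least 3 Id4 UMIs were found in 30 WT and 14 cKO projection neurons. The part of free RNA was not tested. For Id1 and Id3 in astroglial cells the intervals of the libraries overlapped, with 36.4% and 41.4% of cKO cells against 40.9% and 45.4% of WT cells.

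**Figure D2:**
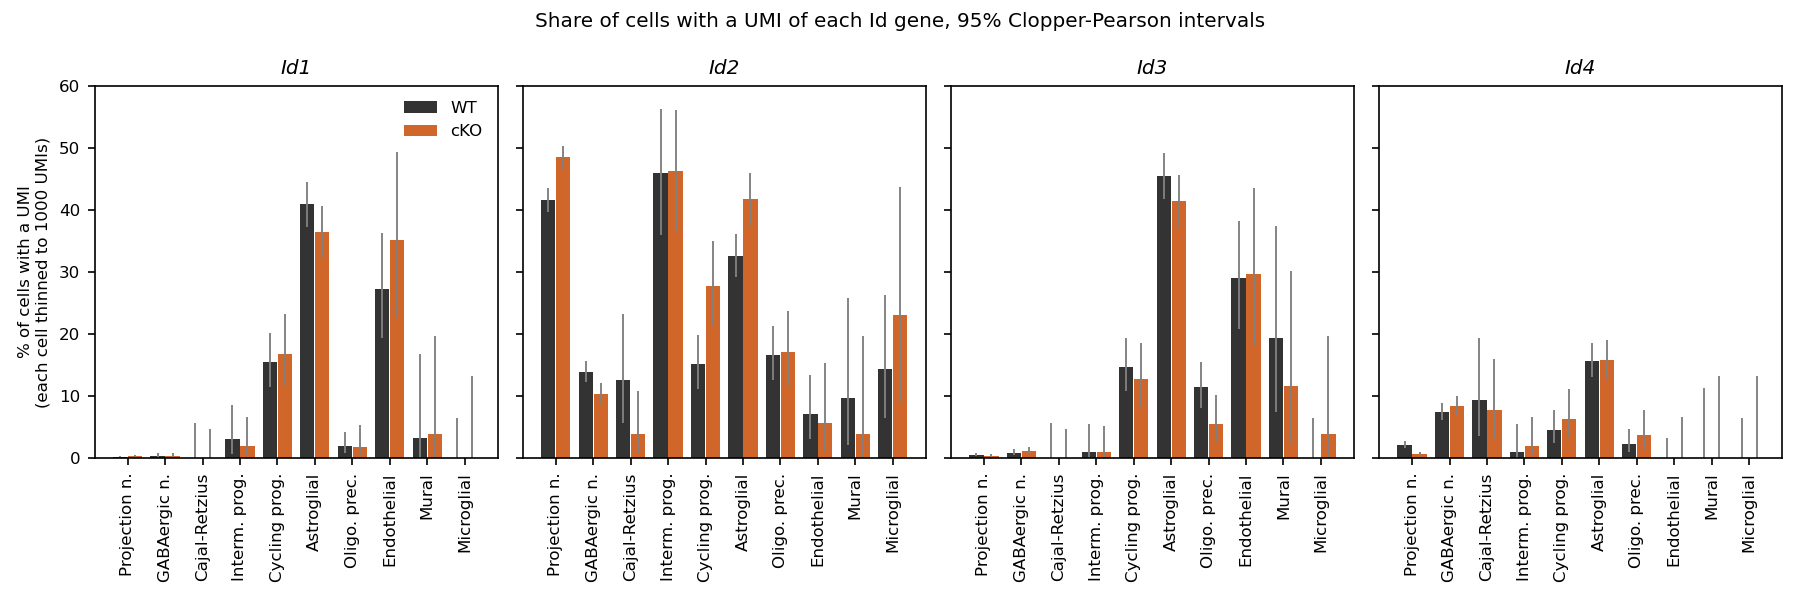
Percent of cells with a UMI of Id1, Id2, Id3 or Id4 after thinning to 1000 UMIs per cell, in WT (dark) and cKO (orange), with 95% Clopper-Pearson intervals. Id1 and Id3 bars are near 0 in neurons and reach 40.9% and 45.4% in WT astroglial cells, while Id2 reaches 48.5% of cKO projection neurons.

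Id1 was also more frequent in cells with Id3 than in cells without it. Among WT astroglial cells with an Id3 UMI 57.8% had an Id1 UMI, against 26.8% of those without, and in cKO the shares were 54.9% and 23.4%. In WT cycling progenitors the shares were 42.9% and 10.7%, and in WT endothelial cells 42.4% and 21.0%. For Id4 the shares were 17.6% of WT astroglial cells with Id3 and 13.9% of those without, and 22.1% and 11.3% in cKO. Id2 gave a similar contrast in WT, where 56.4% of astroglial cells with Id2 and 33.4% of those without had Id1. For Id3 the WT shares were 63.6% and 36.7%. In cKO the contrast by Id2 was smaller, at 44.3% and 30.8% for Id1 and 52.2% and 33.6% for Id3. These are descriptions over cells of 1 library each, and cells of a group differ in type and state.

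The genes most like each member over the 10 groups were taken by Pearson's r on log2(CPM + 10) in WT, among 12336 genes with enough UMIs and without the markers. Groups within a library share its depth and free RNA, so r is a description over 10 points. For Id1 they were Mcc, Pcx and Id3 (r = 0.963, 0.963 and 0.956), and for Id3 they were Nrarp, Cyr61 and Id1 (0.968, 0.959 and 0.956). The pair of Id1 and Id3 had r = 0.971 in cKO. Mcc and Pcx had r = 0.777 and 0.930 with Id1 there. Id2 was nearest to Shisa2, Fam84a and Ddit4 (0.941, 0.931 and 0.930, and 0.904, 0.868 and 0.574 in cKO). Id4 was nearest to Ppargc1a, St6galnac5 and Cntfr (0.917, 0.900 and 0.895, and 0.808, 0.768 and 0.882 in cKO). Bmp7 was nearest to Nkx2-2, a transcription factor of oligodendrocyte precursors, Plpp4 and Timp4 (0.961, 0.961 and 0.960), with r of 0.832 to 0.906 in cKO. Smad6 was nearest to Msx1, itself a BMP target, Colgalt2 and Prodh (0.967, 0.962 and 0.942), of which Msx1 and Prodh had r = 0.428 and 0.425 in cKO. For Smad7 the nearest genes, Zfp524, Zbtb46 and Nfkbil1 (0.895, 0.891 and 0.883), had r of 0.215, 0.411 and -0.372 in cKO.

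Between cKO and WT, the question of the study's design, most members with enough UMIs differed by less than 2-fold. Of 70 member and group pairs, 33 had at least 50 UMIs in either library, and no statement is made on the rest, which include every pair of mural cells. Of the 33 pairs 2 were at least 2-fold apart with intervals apart, both lower in cKO, while 15.0% of all 60431 gene and group pairs were (3.83% higher and 11.2% lower in cKO). The median log2 ratio of all genes lay between -0.16 and 0.08 in the 10 groups. The median over the 33 member pairs was 0.07, against -0.05 over all pairs. Of the 33 intervals 12 lay above 0 (36.4%), 10 below (30.3%) and 11 held 0, against 27.5% above and 34.3% below among all pairs.

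The first of these 2 was Id4 in projection neurons, with 412 UMIs in WT and 206 in cKO, or 16.0 and 6.80 CPM, a log2 ratio of -1.23 (-1.48 to -0.99). In that group 20.5% of 11667 genes met the rule. Under a stricter cell filter, which left 293 WT and 438 cKO cells, the log2 ratio was -2.01. The group also differed in make-up, with 1590 upper-layer and 349 layer 5 neurons in WT and 1070 and 621 in cKO, which touches every projection neuron value here and was not tested beyond the values by layer given with the sub-groups. The cKO UMIs were gathered in few cells, as 10 cells held 39.3% of them against 16.3% in WT. Marker RNA of other groups was also lower in cKO projection neurons, both of groups rich in Id4 and of groups with little. The 8 astroglial markers summed to 94.7 CPM in WT and 63.4 in cKO, and the 8 GABAergic markers to 42.0 and 31.0 CPM, with 7 of 8 higher in WT in each list and none at 0. The 6 Cajal-Retzius markers summed to 13.2 and 7.75 CPM, with 3 higher in WT and 3 in cKO. The 8 microglial markers summed to 3.29 and 1.52 CPM, all 8 higher in WT. The 8 cycling markers, at 12.2 and 12.5 CPM, were not lower. The group's own 8 markers summed to 4619 and 3255 CPM. Their part in the result was not tested.

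The second was Id3 in oligodendrocyte precursors, with 245 UMIs in WT and 70 in cKO, or 138 and 64.9 CPM, a log2 ratio of -1.09 (-1.49 to -0.70). In that group 13.4% of 6035 genes met the rule. The ratio fell short of 2-fold with the mean of cell CPM (-0.97) and with groups by cluster (-0.99). The astroglial markers summed to 1262 CPM in WT and 904 in cKO oligodendrocyte precursors, with 7 of 8 higher in WT and Aqp4 at 0 in cKO, and the group's own markers to 5570 and 3462 CPM. Their part was not tested. After thinning, 11.4% (8.07 to 15.5) of WT and 5.49% (2.54 to 10.2) of cKO cells had an Id3 UMI, and these intervals overlapped.

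Id2 differed in both directions. It was higher in cKO projection neurons (log2 ratio 0.48, 0.46 to 0.51), astroglial cells (0.46, 0.38 to 0.54), cycling progenitors (0.59, 0.45 to 0.74), intermediate progenitors (0.25, 0.07 to 0.43), endothelial cells (0.62, 0.10 to 1.13) and microglial cells (0.76, 0.21 to 1.29). It was lower in GABAergic neurons (-0.42, -0.53 to -0.31), Cajal-Retzius cells (-0.85, -1.43 to -0.28) and oligodendrocyte precursors (-0.27, -0.53 to -0.02). The direction turned under a stricter cell filter in GABAergic neurons (0.0010) and oligodendrocyte precursors (0.33), and in endothelial cells without a cell filter (-0.018) or without doublet removal (-0.0038). In projection neurons 5 of 11 alternatives left the counting interval, and the log2 ratio was 0.996 under the stricter filter. Microglial cells, which lie outside the Nestin-Cre lineage, had 65 and 56 Id2 UMIs, or 113 and 192 CPM. Over all kept cells Id2 had 423 CPM in WT and 639 in cKO. All of these lie within 2-fold. The 8 markers of projection neurons, the group richest in Id2, summed to 324 CPM in WT and 172 in cKO oligodendrocyte precursors. In Cajal-Retzius cells they summed to 990 and 815 CPM, and all 8 were higher in WT in both groups. In GABAergic neurons they summed to 686 and 796 CPM, with 6 of 8 higher in WT. In astroglial cells, where Id2 was higher in cKO, they summed to 222 and 154 CPM. The part of these markers in the Id2 differences was not tested.

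Id1 and Id3 stood slightly lower in cKO astroglial cells, with log2 ratios of -0.25 (-0.32 to -0.17) and -0.18 (-0.24 to -0.13), where the median of all genes was -0.07. In endothelial cells, by contrast, Id1 had 309 CPM in WT and 532 in cKO, with a log2 ratio of 0.78 (0.59 to 0.98), while Id3 had 354 and 323 CPM and an interval that holds 0 (-0.35 to 0.09). The 10 cells with the most Id1 held 41.4% of the WT and 49.3% of the cKO endothelial Id1 UMIs. When cells with tied lists were placed by marker UMIs, an alternative chosen after seeing the data, the endothelial group grew to 149 and 65 cells, and Id1 reached 242 and 581 CPM, a log2 ratio of 1.26 (1.11 to 1.41) and past 2-fold. The added cells matched another list equally. In WT they were deeper than the rest, since Id1 UMIs rose from 456 to 771 while its CPM fell. Whether some of them were doublets that passed the filter was not tested. In the group as first placed, the mean of cell CPM gave a log2 ratio of 0.47. The immediate early genes Fos, Fosb, Jun, Junb and Egr1 summed to 1497 CPM in WT and 2230 in cKO endothelial cells, and the 8 mural markers to 737 and 300.1 CPM there, all 8 of them higher in WT. The 8 cycling markers summed to 308 and 96.8 CPM, 7 of 8 higher in WT, and the 8 GABAergic markers to 77.2 and 18.4 CPM. Their part in the Id1 difference was not tested. In astroglial cells the group's own 8 markers summed to 8078 CPM in WT and 7039 in cKO. The 8 cycling markers summed to 122 and 83.5 CPM there, 7 of 8 higher in WT. The part of these markers in the astroglial Id1 and Id3 ratios was not tested.

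For the ligand and the inhibitory SMADs no difference met the rule. Bmp7 had a log2 ratio of -0.49 (-0.90 to -0.09) in oligodendrocyte precursors, -0.67 (-1.37 to 0.00) in cycling progenitors and 0.15 (-0.22 to 0.53) in astroglial cells. The 7 markers of oligodendrocyte precursors, the group richest in Bmp7, summed to 965 CPM in WT and 423 in cKO cycling progenitors, all 7 higher in WT and none at 0, and their part was not tested. Smad7 was higher in cKO projection neurons, at 22.9 and 29.2 CPM (0.35, 0.20 to 0.51), and GABAergic neurons, at 22.4 and 30.5 CPM (0.44, 0.18 to 0.71). Under the stricter filter these ratios were 1.00 and -0.12. In astroglial cells Smad6 and Smad7 had log2 ratios of 0.02 (-0.49 to 0.52) and 0.00 (-0.38 to 0.39), and under the stricter filter Smad6 was at 0.62.

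**Figure D3:**
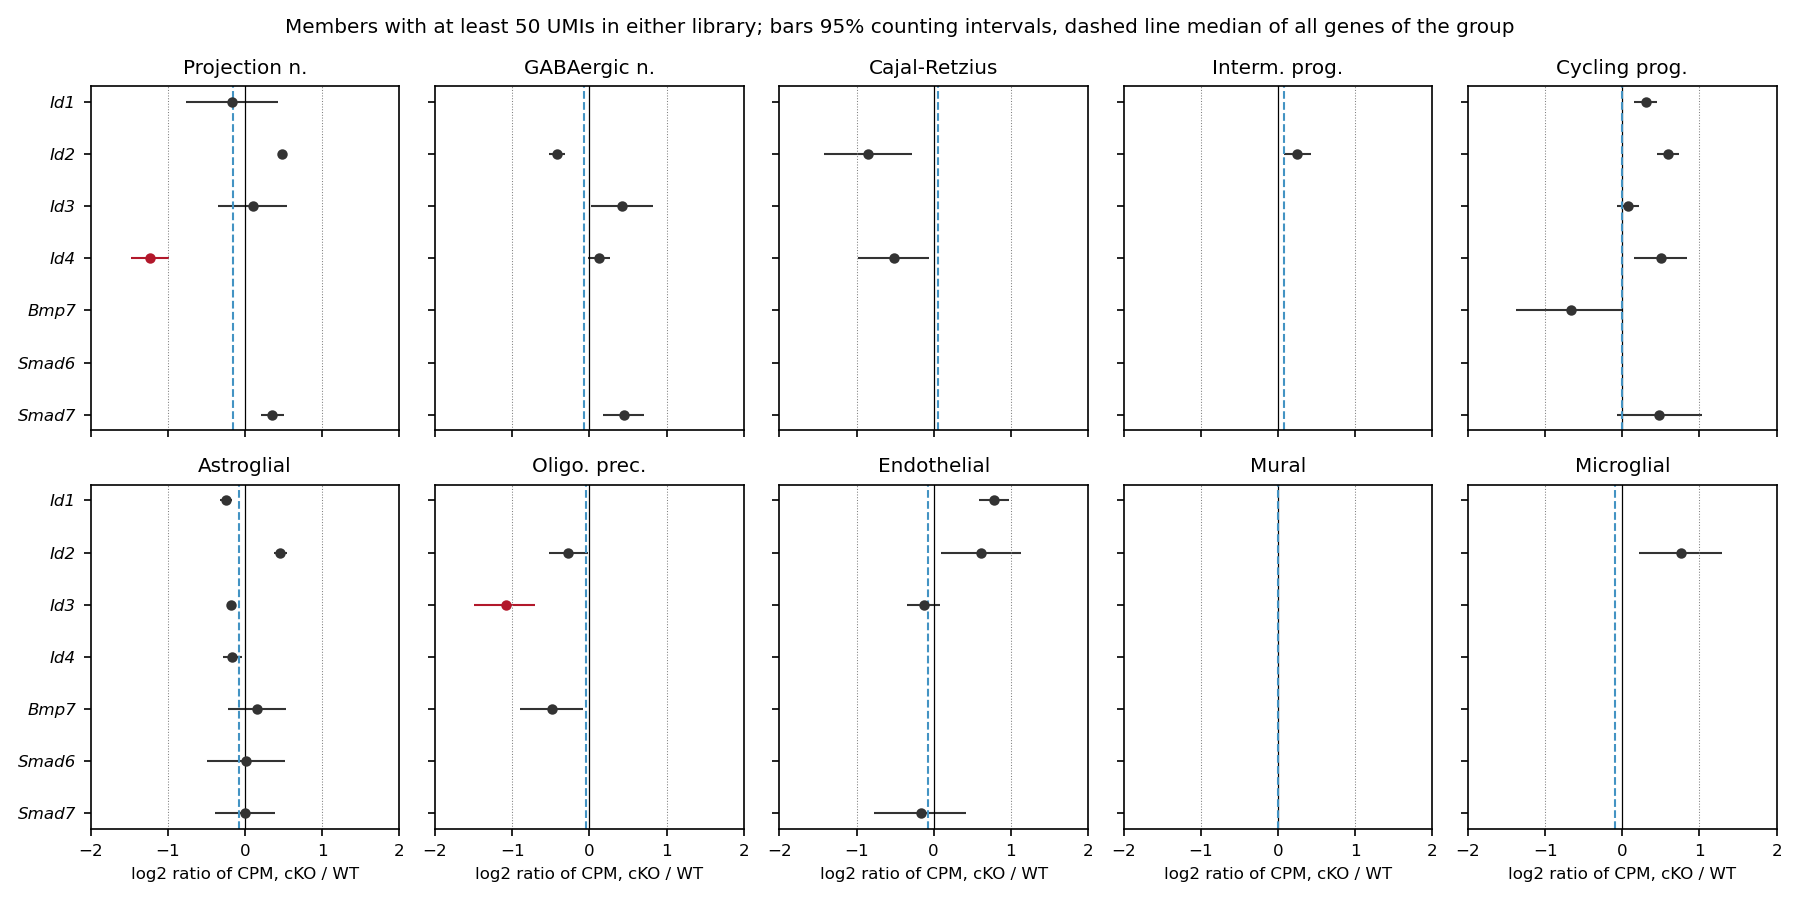
Log2 ratio of CPM, cKO over WT, for the 33 member and group pairs with at least 50 UMIs in either library (mural cells have none), with 95% counting intervals; the dashed line is the median of all genes of the group and dotted lines mark 2-fold. The red points, Id4 in projection neurons at -1.23 and Id3 in oligodendrocyte precursors at -1.09, are the pairs past 2-fold with intervals apart.

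Neurons, cycling progenitors and astroglial cells were divided further by a second set of marker lists. Of 35 member and sub-group pairs with enough UMIs 4 met the rule, against 14.8% of 66249 over all genes. Id4 was lower in cKO in upper-layer neurons (197 UMIs in WT and 59 in cKO, 13.7 and 5.72 CPM, log2 ratio -1.26, -1.70 to -0.83) and in GABAergic neurons of the medial ganglionic eminence type (68.3 and 25.7 CPM, -1.41, -1.85 to -0.98). Layer 5 neurons had 20.9 and 12.2 CPM of Id4 (-0.78, -1.20 to -0.35), which did not meet the rule. Layer 6 neurons had 12 and 9 Id4 UMIs, fewer than the rule needs. Id4 was higher in cycling cells whose next list was astroglial (41.8 and 90.4 CPM, 1.11, 0.64 to 1.59). Over all cycling progenitors 10 cells held 47.0% of the cKO Id4 UMIs, 17 of them in 1 cell, against 24.3% in WT. The caudal ganglionic eminence type had 84.9 and 132 CPM of Id4 (0.63, 0.32 to 0.95) and the striatal type 110.4 and 115 CPM (0.06, -0.21 to 0.33), so the GABAergic sub-groups did not share a direction.

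Id2 was lower in cKO in the striatal type, at 57.4 and 27.3 CPM (-1.07, -1.57 to -0.59), the lowest of the neuronal sub-groups in both libraries. Among projection neurons it was higher in cKO in upper-layer (655 and 958 CPM) and layer 5 neurons (631 and 846 CPM), while layer 6 neurons had 651 and 666 CPM and a log2 ratio of 0.03 (-0.10 to 0.16). Maturing astrocytes had more Id1, Id2, Id3 and Id4 than the other astroglial cells in both libraries, for example 683 against 453 CPM of Id1 and 1173 against 785 CPM of Id3 in WT. Many cells were set aside for want of sub-group markers, 627 of 2644 WT and 985 of 2815 cKO projection neurons and 718 of 1588 WT and 469 of 1289 cKO GABAergic neurons.

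**Figure D4:**
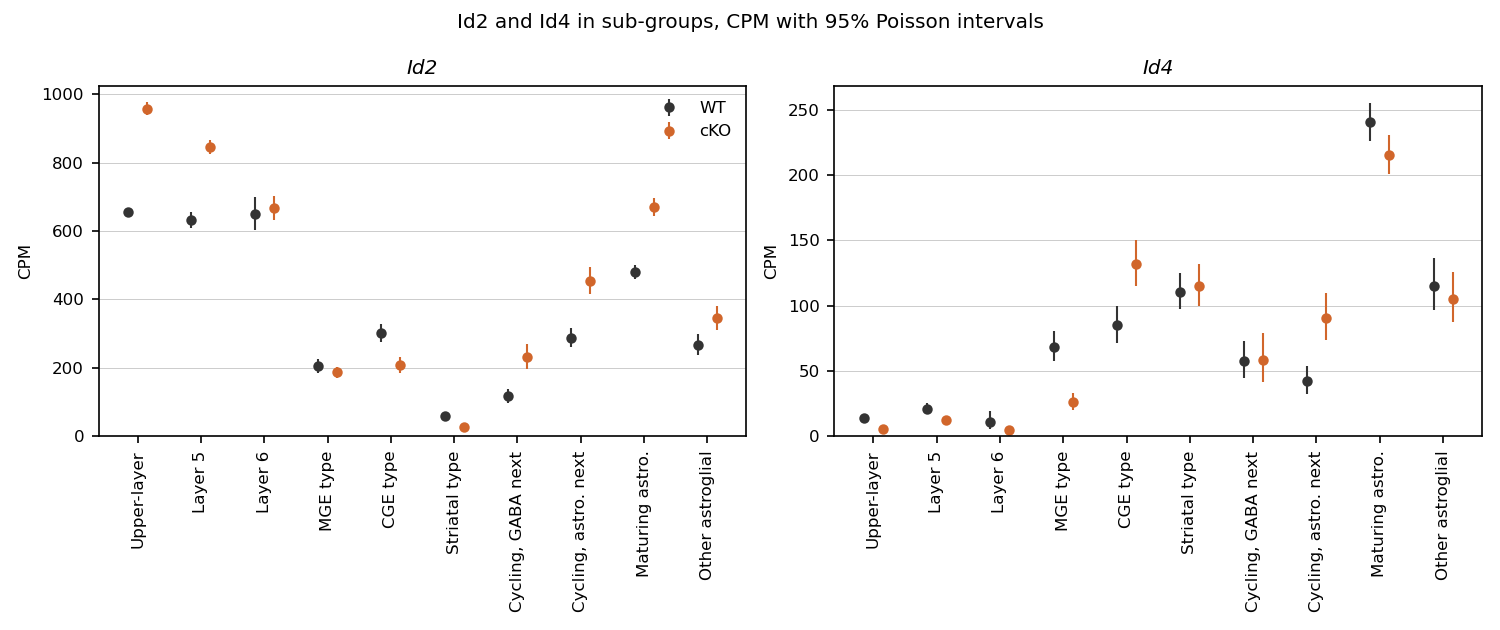
CPM of Id2 and Id4 (linear axes from 0) in 10 sub-groups in WT (dark) and cKO (orange) with 95% Poisson intervals; MGE and CGE are the medial and caudal ganglionic eminence. Id2 is higher in cKO in upper-layer and layer 5 neurons, and Id4 is 68.3 and 25.7 CPM in the MGE type and 84.9 and 132 CPM in the CGE type.

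The other genes of the BMP and HLH pathway were read from a list of 42 genes in 6 roles. Of 420 gene and group pairs 151 had enough UMIs, and 7 met the rule, 5 higher and 2 lower in cKO, against 15.0% of all gene and group pairs. Atoh8, Bmp4, Bmp5, Bmp6, Msx2 and Smad9 had enough UMIs in no group. The median log2 ratio was 0.26 over the 151 pairs, and 116 of them lay above 0 (76.8%, against 46.5% of all pairs). By role the median was -0.19 for ligands (12 pairs of 5 genes), 0.36 for receptors (33 of 8) and 0.46 for signal transducers (23 of 3). It was 0.29 for inhibitors (47 of 13), 0.28 for targets (10 of 4) and 0.07 for E proteins (26 of 3). A gene counts once per group, so these pairs are not independent, and all come from the same 2 libraries. The share over all pairs was not matched for level.

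Among the signal transducers Smad4, the common partner of the other SMADs, had 79.4 CPM in WT and 163 in cKO astroglial cells, a log2 ratio of 1.04 (0.87 to 1.21). There the oligodendrocyte precursor markers summed to 639 and 288 CPM, the projection neuron markers to 222 and 154, and the cycling markers to 122 and 83.5. The intermediate progenitor markers went the other way, at 77.8 and 87.6 CPM, as did the ependymal markers, at 86.4 and 119 CPM. Among the receptors Acvr2a, an activin and BMP receptor, had 29 and 56 UMIs in cycling progenitors (1.36, 0.68 to 2.06), where the oligodendrocyte precursor markers summed to 965 and 423 CPM, and Eng, a co-receptor of endothelial cells, 83 and 31 UMIs in mural cells (-1.01, -1.66 to -0.40). In mural cells the 8 endothelial markers summed to 1810 CPM in WT and 837 in cKO, with all 8 higher in WT. The part of these markers was not tested.

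Extracellular inhibitors met the rule 3 times. Fst, which binds activins and BMPs, had 15.4 and 31.0 CPM in projection neurons (1.01, 0.84 to 1.18), Bmper 28.9 and 13.0 CPM in astroglial cells (-1.15, -1.60 to -0.73), and Nbl1 52 and 98 UMIs in mural cells (1.32, 0.82 to 1.84). In mural cells the 6 fibroblast markers summed to 548 CPM in WT and 752 in cKO, with 4 higher in cKO and 2 at 0 in both, and the 8 cycling markers to 41.1 and 255 CPM, and their part in the Nbl1 difference was not tested. In astroglial cells the 7 oligodendrocyte precursor markers summed to 639 CPM in WT and 288 in cKO, all 7 higher in WT and Gpr17 at 0 in cKO, and their part in the Bmper difference was not tested. Of the targets Gata2, a transcription factor, had 54 UMIs in WT and 194 in cKO endothelial cells, or 36.6 and 238 CPM, a log2 ratio of 2.70 (2.26 to 3.16). The mural, cycling and GABAergic markers given above for endothelial cells moved beside it, lower in cKO, and their part was not tested. No ligand and no E protein met the rule.

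The gene with the highest CPM in WT is given for each role, as a description of that gene alone. The co-receptor Eng had 664 CPM in WT and 608 in cKO endothelial cells, and the pseudo-receptor Bambi, an inhibitor, 276 and 397 CPM in the same cells. Smad1, which carries the signal of BMP receptors, was highest in Cajal-Retzius cells (309 and 403 CPM), and Bmp1, which is listed with the ligands but encodes a protease, in mural cells from 15 and 25 UMIs. Lfng, listed with the targets and known as a modifier of Notch, had 107 and 120.2 CPM in astroglial cells, the group richest in Id1 and Id3. The E protein Tcf4, a partner of Id proteins, had 2754 and 3138 CPM in intermediate progenitors.

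**Figure D5:**
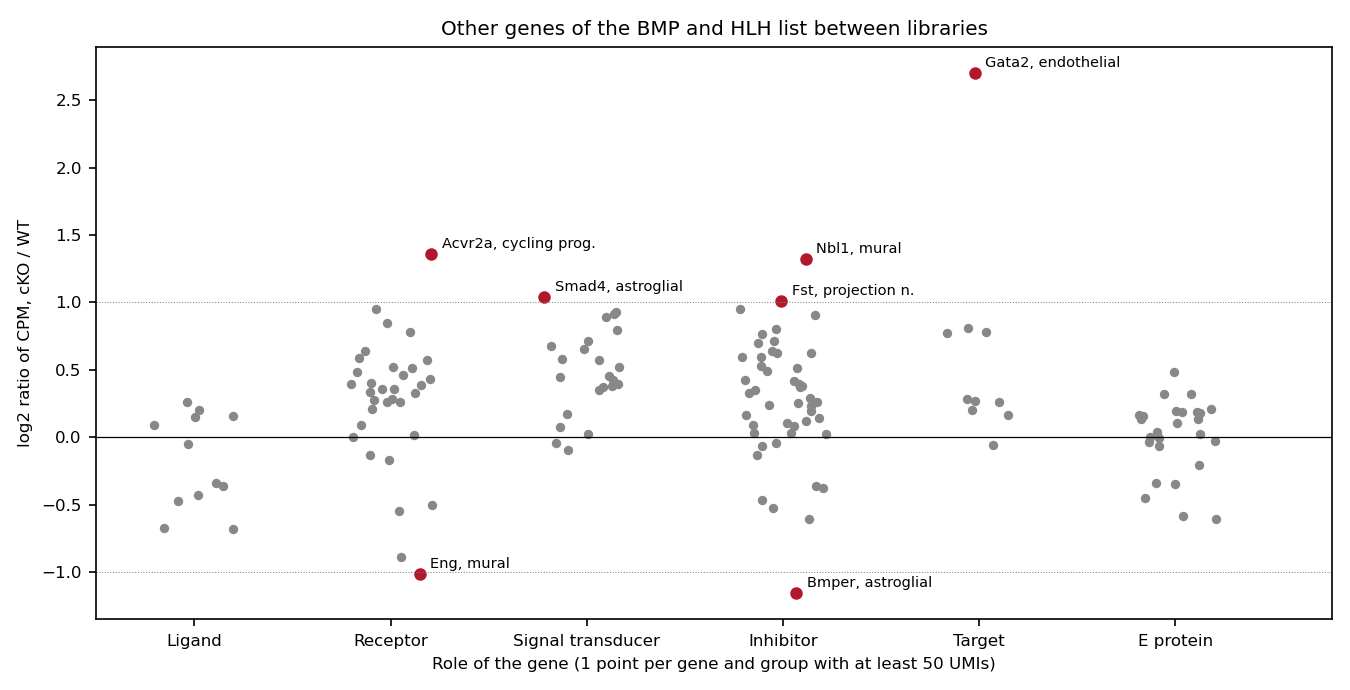
Log2 ratio of CPM, cKO over WT, for the 151 gene and group pairs of the 42-gene list with at least 50 UMIs, by role (horizontal scatter within a role is arbitrary); dotted lines mark 2-fold. The 7 red, named points met the rule, with Gata2 in endothelial cells at 2.70 farthest from 0, and grey points lie mostly above 0 in every role but the ligands.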

How the data were processed

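Cells of P0 telencephalic tissue from 1 WT and 1 cKO library were, per the labels, captured on the 10x platform. The authors deposited raw UMI counts per gene and barcode for each library, which were used here. The submitters' processing notes name Cell Ranger 2, STAR, Seurat and mm9, while the matrix headers name software 3.0.1. How strand and multiply mapped reads were treated is not given in the sources used here. GRCm38 coordinates serve only to locate genes. A combined matrix that the authors deposited, with 94.5% of the cKO UMIs, was used as an alternative. Per-barcode totals, dense copies of the counts, and a table of the authors' own cluster comparisons (fold changes and p-values) were not used.

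Total counts were 69554624 UMIs over 10715 WT and 67448785 over 9198 cKO barcodes. Cells with at least 500 genes and at most 10% mitochondrial UMIs were kept. Scrublet (scanpy 1.11.5) scores above 0.25, a threshold set after seeing that the automatic one marked 0 cKO cells, removed 165 WT and 106 cKO cells. Leiden clusters (leidenalg 0.10.2, resolution 1) served only as an alternative and a description. UMIs were summed per group and scaled to CPM. Levels carry exact Poisson intervals, ratios conditional binomial intervals, and shares Clopper-Pearson intervals (scipy 1.17.1). A group limited to few cells has wide intervals, which cover counting error only.

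The genes named are the members in every group, the list genes that met the 2-fold rule, the list gene with the highest WT CPM per role, and the 3 genes most like each member. Members, lists and markers were chosen with earlier results of these data known. The interval and call rules were tested on counts simulated with Poisson error alone, the error that the intervals assume. Spread between cells, animals or libraries was not part of that simulation. Alternatives changed the cell filter, doublets, marker minimum, grouping, scaling (TMM factors, edgeR 4.0.16, used for scaling alone), matrix, UMI minimum, thinning and tied lists.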

Additional observations from a re-analysis of the deposited data

Results flagged for a closer look

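Each Id gene stood higher in cKO in one group of cells and lower in another, with both counting intervals clear of 0 and of the group's median, and with 1 library per genotype these contrasts between groups were not tested. Among all 7879 genes with enough UMIs in at least 4 groups, 12.9% had such intervals in both directions, a share not matched for level, and intervals that cover counting error alone are narrow for genes with as many UMIs as these. For Id1 the log2 ratio was 0.78 in endothelial and -0.25 in astroglial cells. For Id2 it was 0.76 in microglial and -0.85 in Cajal-Retzius cells. There 10 cells held 66.2% of the WT and 82.1% of the cKO Id2 UMIs of microglial cells, and 62.9% and 48.9% of those of Cajal-Retzius cells. For Id3 the log2 ratio was 0.42 in GABAergic neurons (0.17 to 1.92 over the processing alternatives) and -1.09 in oligodendrocyte precursors. In GABAergic neurons 10 cells held 37.1% and 43.2% of the Id3 UMIs. For Id4 the log2 ratio was 0.50 in cycling progenitors (10 cells held 47.0% of the cKO UMIs) and -1.23 in projection neurons.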

How the results depend on the processing

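No paired analysis was possible because each genotype is 1 library and the labels carry no replicate numbers. The number of members with the same highest group in both libraries was 6 and ranged from 4 (tied lists placed by UMIs) to 7 (at least 2 markers, or the combined matrix). The number of member pairs at least 2-fold apart with intervals apart and enough UMIs was 2 or 3, except with the mean of cell CPM, where it was 1, Id4 in projection neurons. With groups by cluster the 2 were Id4 in projection neurons and Id1 in endothelial cells. For the 42-gene list the 7 pairs became 14 with groups by cluster, 14 with at least 20 UMIs and 17 with at least 1 UMI. The percent of all pairs called was 9.10 with at least 1 UMI and 14.5 to 16.4 otherwise.

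Id4 in projection neurons ranged from -2.01 to -1.04 and Id3 in oligodendrocyte precursors from -1.48 to -0.97 over the alternatives. Id1 in endothelial cells ranged from 0.47 (mean of cell CPM) to 1.26 (tied lists by UMIs). Id3 ranged from 0.17 to 1.92 in GABAergic neurons and from -0.20 to 1.93 in projection neurons, each lowest with groups by cluster and highest under the stricter filter, where it did not meet the rule. Among 356 alternative values of the 33 ratios, 35 left the counting interval of the reported ratio without such a turn, and 6 turned the sign of a ratio whose interval had excluded 0: Id2 in endothelial cells to -0.018 without a cell filter and to -0.0038 without doublet removal, Id2 in GABAergic neurons to 0.0010, Id2 in oligodendrocyte precursors to 0.33 and Smad7 in GABAergic neurons to -0.12 under the stricter filter, and Id1 in cycling progenitors to -0.078 with groups by cluster. The cause was not tested, and the stricter filter left 293 WT projection neurons. Shares of cells with a UMI moved with the thinning depth, and the number of members with the same highest group by share was 4 at 1000 UMIs and 6 at 2000 or unthinned. Depth limits Smad6. The number of cells (32 and 27) limits mural cells, where no member had 50 UMIs, and with tied lists placed by UMIs Id1 had 191 and 85 and Id3 238 and 60 UMIs there.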
